A study of Mus musculus with 6 samples.

Results

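Splenic miRNAs of lupus-prone mice given an implant of 17alpha-ethinyl estradiol (EE), a man-made estrogen used in oral contraceptives, were set directly against those of mice given an implant of 17-beta estradiol (E2), the natural hormone. The comparison took the 4 samples that carry one of these treatment labels, of 6 in the series, and all 566 mouse miRNA probes of the 626 probes in the table. The EE and E2 groups held 2 samples each. An empty implant, called placebo below, gave the other 2 samples, whose values are set beside some results and entered only 1 alternative fit. All mice were female NZB/WF1, a hybrid that develops a disease like human systemic lupus erythematosus. Mice were 6 to 7 weeks old at implantation and were treated for 9 weeks. Splenocytes are the mixed cells of the spleen, so every value is an average over lymphocytes, myeloid cells, red cell precursors, vessel and stromal cells.

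EE carries an added ethinyl group on the steroid ring, a change known to slow its breakdown in the liver. No dose is stated in the sources used here, so a difference below is one between these implants and not between the molecules at a matched dose. Nothing in those sources says whether the mice kept their ovaries. Nor do they tell whether the samples within a group are different animals, and p-values therefore reflect only the spread among these samples, which may be technical. This was 1 pair of compounds, compared at the same duration.

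A miRNA is a short RNA that guides Argonaute proteins to messenger RNAs and lowers their output. It finds its targets mainly through its seed, bases 2 to 8 from the 5′ end, so miRNAs with the same seed share many targets. Many miRNAs are made chiefly in one cell lineage, which is why a spleen profile also reads the mix of cells. In the spleen, estrogens are known to alter the output of lymphocytes and to favour blood formation outside the bone marrow in the mouse.

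The sequences below are the mature miRNAs on which the comparison turned, shown 5′ to 3′ with the seed in capitals, as given by RefSeq for mouse build GRCm38.p6. Of the 12 miRNAs past the threshold, 8 had an entry used here, and older panel names were matched to the current name and arm from background knowledge. A miRNA not shown may still have a RefSeq entry. The first 5 were higher with EE and the next 3 were lower.
miR-125b-5p: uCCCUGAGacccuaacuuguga
miR-126-3p: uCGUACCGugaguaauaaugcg
miR-451: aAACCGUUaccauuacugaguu
miR-106b: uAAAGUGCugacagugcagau
miR-21: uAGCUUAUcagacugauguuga
miR-181a: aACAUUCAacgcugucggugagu
miR-223: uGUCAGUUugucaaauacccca
let-7g: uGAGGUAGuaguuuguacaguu

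No seed was shared among these 8. Their genes also lay apart, on the plus strand at chr2:26591402-26591423 inside Egfl7 for miR-126-3p and chr11:78073186-78073207 inside no other listed gene for miR-451. On the minus strand, miR-106b lay at chr5:138165787-138165807 inside Mcm7 and miR-21 at chr11:86584120-86584141 inside Vmp1. On the plus strand, let-7g lay at chr9:106178846-106178867 inside Wdr82 and miR-223 at chrX:96242884-96242905 inside the gene F630028O10Rik. Both miR-125b-5p and miR-181a came from more than 1 locus, so their counts cannot be assigned to one gene.

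Counts were read with the nCounter assay, which tags each miRNA and counts colour-coded barcodes without amplification. A normalized count is the deposited whole number per probe and sample, and 93 miRNAs had a mean over the 4 samples above a detection floor of 52.6, set 2 SD above the mean of the 8 negative controls. The other 473 probes were not tested, and their values ran from 1 to 70. Of the 93, 84 had all 4 values above the floor. Between the samples of one treatment the median gap was 0.14 log2 units for EE and 0.18 for E2.

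With EE, the stromal and vessel miRNAs miR-145, miR-125b-5p and miR-126-3p and the red cell miRNA miR-451 were higher than with E2. The lymphocyte miRNAs miR-150 and miR-181a and the neutrophil miRNA miR-223 were lower. In limma's moderated test, 12 of the 93 miRNAs were past an adjusted p of 0.05, which is 12.9%. They split into 6 higher with EE (6.45%) and 6 lower (6.45%). Both EE samples lay beyond both E2 samples for 52 of the 93, or 55.9%, above in 24 (25.8%) and below in 28 (30.1%), so the absence of overlap alone marks no miRNA out. Without adjustment, 22 of the 93 (23.7%) had a p under 0.05. The median log2 difference, EE minus E2, over the 93 was 0.03, with 50 above 0 and 43 below.

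With either E2 sample left out no miRNA passed in limma, with 16 and 22 at an unadjusted p under 0.05. That fit sets both EE samples against 1. The differences themselves moved little for the firmest calls, given here without E2 sample 1 and then without E2 sample 2. miR-150 was at -0.63 and -0.72, miR-145 at 0.95 and 1.07, and miR-223 at -0.69 and -0.81. Others moved more. In the same order, miR-125b-5p was at 0.96 and 1.53, miR-181a at -0.59 and -0.92, and miR-451 at 0.86 and 0.52. miR-106b was at 0.45 and 0.79, and let-7g at -0.31 and -0.61. Without EE sample 2 the count was 6, and with the placebo samples in the fit to share the spread it was 7 (7.53%). Those 7 were miR-150, miR-145, miR-125b-5p, miR-181a, miR-126-3p, miR-223 and the miR-466a-3p+miR-466b-3-3p probe.

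**Figure D1:**
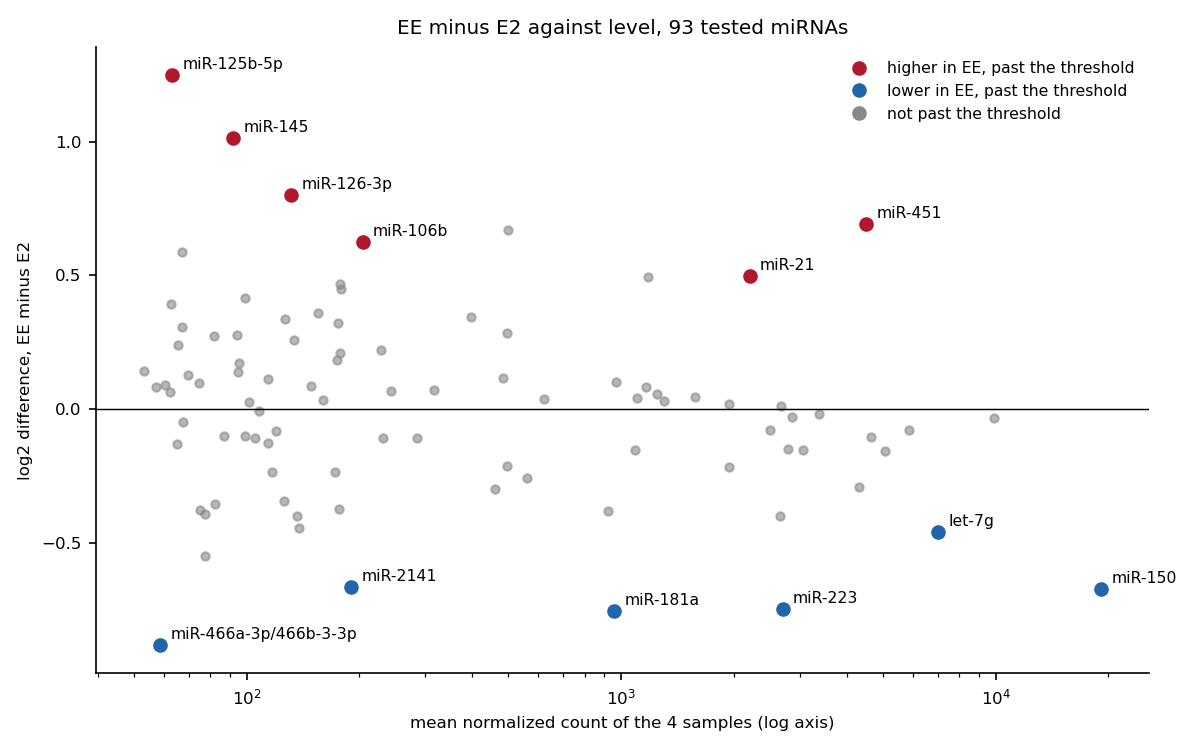
Log2 difference (EE minus E2, vertical axis) against the mean normalized count of the 4 samples (horizontal log axis), with a point for each of the 93 tested miRNAs. The 6 higher miRNAs include 4 with EE means of at most 247 normalized counts, and also miR-451, which ranks 5 by EE mean. On the lower side miR-150 and let-7g rank 1 and 3, while the miR-466a-3p probe had an EE mean of 41.

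The stromal miRNAs showed the largest differences of the comparison. miR-145, a miRNA of smooth muscle and pericytes, had 123 normalized counts in both EE samples, against 58 and 63 in the E2 samples. It was 2.02-fold higher with EE, a log2 difference of 1.01 ± 0.18 (SE, limma adjusted p 0.00647). The placebo samples, at 85 and 74, stood between the groups. miR-125b-5p, which is abundant in stromal cells and early blood progenitors and restrains differentiation of several lineages, had 82 and 96 normalized counts with EE, against 30 and 45 with E2. Its log2 difference was 1.25 ± 0.25 (SE, limma adjusted p 0.0116), and the placebo values of 75 and 71 again lay between. Because both E2 values of miR-125b-5p fell short of the floor, that fold is imprecise, and the log2 difference was 1.87 with the negative controls subtracted.

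These 2 were the tested members of a list of 5 stromal and smooth muscle markers, and the remaining 3 did not reach the floor. Both were called higher. Over all tested miRNAs, 25.8% had EE above E2 without overlap and 6.45% were called higher. miR-143, which is made from the same transcript as miR-145, had 25 and 30 normalized counts with EE, against 16 and 13 with E2, all under the floor. The negative controls averaged 25.2 and 23.8 with EE and 18.5 and 20.5 with E2, so miR-143 was near background and cannot be read. miR-214 and miR-199a-3p were at most 33 in the 4 samples. The summed counts of the 5 probes were 282 on average with EE and 146 with E2. In bulk splenocytes, fewer cells of a type and less RNA per cell cannot be told apart, here and below.

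miR-126-3p, made from an intron of Egfl7 in endothelial cells and also in blood stem cells, had 154 and 180 normalized counts with EE, against 103 and 88 with E2. It was 1.74-fold higher with EE, a log2 difference of 0.80 ± 0.18 (SE, limma adjusted p 0.0164). The placebo samples were at 78 and 80, close to E2. Its partner from the other arm, miR-126-5p, lay at 12 and 13 with EE and 12 in both E2 samples, a level at which nothing can be read. Of these 2 endothelial markers, 1 was tested and called higher, beside 6.45% called higher over all tested miRNAs. The placebo values of these 3 vessel and stromal miRNAs show different orders: for miR-145 and miR-125b-5p both EE samples were above both placebo samples and both E2 samples below (2 of the 93 tested, 2.15%), whereas for miR-126-3p no E2 sample was below placebo.

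All 3 miRNAs of red cell precursors had both EE samples above both E2 samples as deposited, and 1 passed the test. Over all tested miRNAs, 25.8% had EE above E2 without overlap and 6.45% were called higher. miR-451, which is processed by Argonaute 2 without Dicer and is required for red cell maturation under stress, had 6060 and 5060 normalized counts with EE, against 3857 and 3050 with E2. Its log2 difference was 0.69 ± 0.15 (SE, limma adjusted p 0.0153). Placebo samples lay far lower, at 1128 and 468. miR-144 comes from the same locus, within 139 bases of miR-451, and had 430 and 815 normalized counts with EE, against 400 and 346 with E2. With EE samples that far apart, its log2 difference of 0.67, nearly that of miR-451, had a 95% interval of 0.08 to 1.26 and an adjusted p of 0.152. miR-486, made from the ankyrin-1 gene of red cells and muscle, was at 1443 and 1312 with EE, against 973 and 980 with E2 (log2 difference 0.49, limma adjusted p 0.0599, and -0.03 when scaled by ligation controls). The median of the 3 was 0.67, beside 0.03 over all tested miRNAs, and 0.98 and 0.15 when scaled by housekeeping mRNAs and by ligation controls.

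The call of miR-451 was lost when the placebo samples shared the spread (limma adjusted p 0.287), and the gap between its placebo samples was the widest among the 12. With probes under a mean of 100 left out, miR-144 and miR-486 passed, with adjusted p-values of 0.00304 and 0.0303 in limma and the same log2 differences. The erythroid probes summed to 7560 normalized counts on average with EE and 4803 with E2.

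Of the 4 lymphocyte miRNAs, miR-150 and miR-181a were lower with EE. miR-150, which is high in mature B and T cells and restrains the transcription factor Myb, had 15277 and 14140 normalized counts with EE, against 24211 and 22678 with E2. It was 1.59-fold lower with EE, a log2 difference of -0.67 ± 0.08 (SE), and had the smallest adjusted p of the comparison, 5.27e-04 in limma. Placebo samples were higher than both, at 44123 and 35124. As the brightest probe of the panel, miR-150 set much of the total: the summed mouse miRNA counts averaged 112566 with EE and 125093 with E2, and miR-150 made up 69.7% of that gap. Without it the sums were 97857 with EE and 101649 with E2.

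miR-181a, a regulator of antigen receptor signalling in developing lymphocytes, had 699 and 718 normalized counts with EE, against 1345 and 1065 with E2. The log2 difference was -0.76 ± 0.17 (SE, limma adjusted p 0.0165), and the placebo samples were highest at 2022 and 1897. Its family members miR-181b and miR-181d, on a shared probe, and miR-181c stayed under the floor. miR-342-3p, made from an intron of Evl and high in lymphocytes, had 2321 and 2258 normalized counts with EE, against 3033 and 3013 with E2. Samples of each group lay close together, yet its log2 difference of -0.40 (95% interval -0.68 to -0.12) did not pass, with an adjusted p of 0.0673.

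miR-155, induced in activated lymphocytes and macrophages, could not be placed. Its EE samples were at 20 and 159 normalized counts, against 94 and 57 with E2, and the 95% interval of its log2 difference ran from -1.92 to 1.21. The log2 difference was 1.11 without EE sample 1 and -1.82 without EE sample 2, each past the threshold in limma, with adjusted p-values of 0.00898 and 8.57e-04. Of the 4 lymphoid markers, 2 passed, both lower, beside 6.45% called lower over all tested miRNAs. Their median log2 difference was -0.54, and it was -0.12 after quantile normalization, -0.23 with housekeeping mRNAs and -1.06 with ligation controls. miR-142-3p, common to all white blood cells, was at 3415 and 4366 with EE, against 5069 and 4409 with E2 (log2 difference -0.29, limma adjusted p 0.262).

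Among myeloid miRNAs, miR-223, the main miRNA of neutrophils, had 1984 and 2042 normalized counts with EE, against 3522 and 3244 with E2. It was 1.68-fold lower with EE, a log2 difference of -0.75 ± 0.13 (SE, limma adjusted p 0.00647). The placebo samples, at 1308 and 911, were below both estrogens, so EE lay between placebo and E2. The order of the 3 groups thus differs from that of miR-150, where EE was the lowest of the 3.

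The other myeloid markers, which are also made outside the myeloid lineage, did not pass. miR-23a was at 508 and 509 normalized counts with EE, against 644 and 575 with E2, a log2 difference of -0.26. miR-27a, from the same cluster, had -0.30. miR-24 had 0.39, but it is encoded in that cluster on chromosome 8 and again on chromosome 13, so its counts cannot be assigned to either. Of the 4 listed, 1 was lower past the threshold, beside 6.45% called lower over all tested miRNAs. The median was -0.28, which turned to 0.03 when scaled by housekeeping mRNAs.

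**Figure D2:**
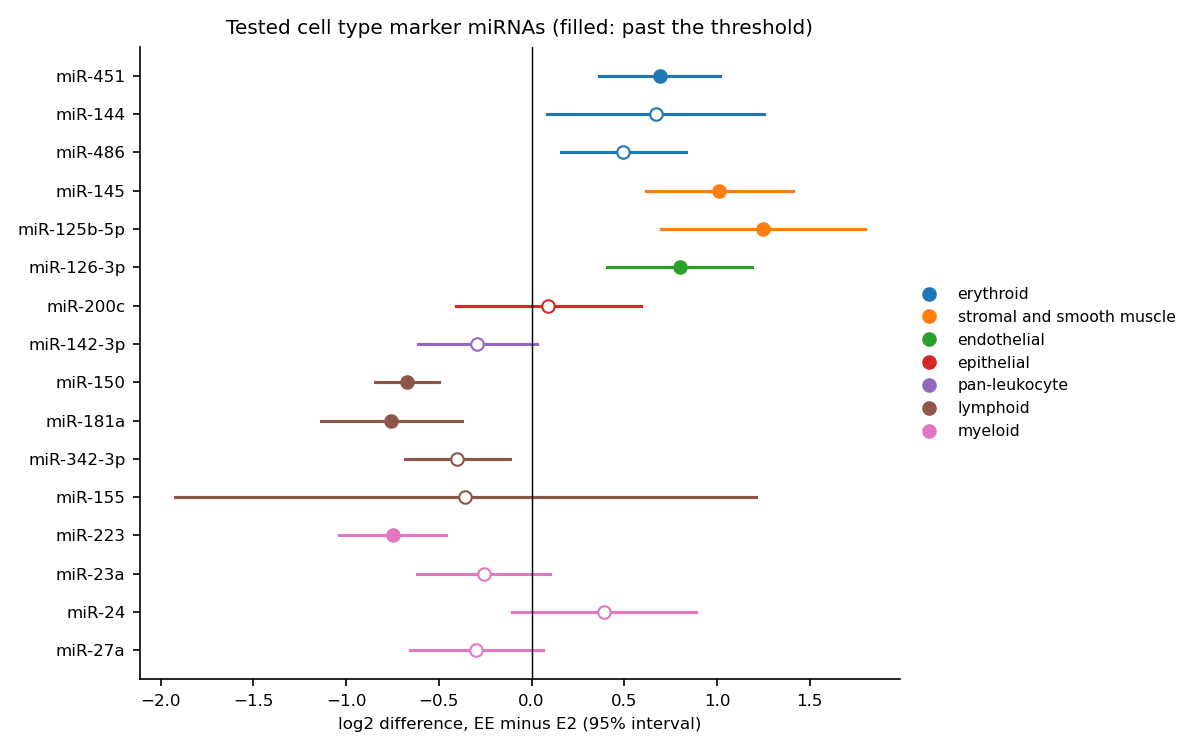
Log2 difference (EE minus E2, horizontal axis) with its 95% interval for the 16 tested miRNAs of the cell type lists, grouped by colour; filled points are past the threshold. The erythroid, stromal and endothelial intervals lie above 0, and those of miR-150, miR-181a, miR-342-3p and miR-223 lie below it. The intervals of miR-155, miR-142-3p, miR-200c and the myeloid miR-23a, miR-24 and miR-27a span both sides.

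Markers of other tissues were near background. The 4 muscle, 3 pancreas, 1 liver and 2 neuron probes were all under the floor, with a highest value of 43 in the 4 samples. Of 5 epithelial markers, only miR-200c was tested, at 70 and 55 with EE and 53 and 64 with E2.

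Outside the cell type lists, 5 further miRNAs passed. miR-21, which is induced in activated immune cells, had 2450 and 2710 normalized counts with EE, against 1895 and 1755 with E2. Its log2 difference was 0.50 ± 0.14 (SE, limma adjusted p 0.0375). Here EE stood near the placebo samples, at 2266 and 2586, and E2 was the lower one. miR-106b, which represses the cell cycle inhibitor p21, was at 240 and 254 normalized counts with EE, against 142 and 180 with E2, a log2 difference of 0.62 ± 0.17 (SE, limma adjusted p 0.0375). Both EE samples were above the placebo samples, at 144 and 224, while the E2 samples overlapped them.

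let-7g, a member of the let-7 family, had 5958 and 5795 normalized counts with EE, against 8987 and 7277 with E2. It was 1.38-fold lower with EE (log2 difference -0.46 ± 0.12, SE, limma adjusted p 0.0286), the smallest change among the 12. Placebo samples were at 9936 and 8863.

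The miR-466a-3p+miR-466b-3-3p probe, whose miRNAs belong to a repeat-derived miRNA cluster in an intron of Sfmbt2, was at 42 and 40 normalized counts with EE, against 80 and 73 with E2. The log2 difference was -0.88 ± 0.21 (SE, limma adjusted p 0.0210). Both EE values were under the floor, and near-identical copies of these miRNAs may share its counts, so its size is uncertain, and it was -1.72 with the negative controls subtracted. Of 33 probes named miR-297, miR-466, miR-467 or miR-669, 2 were tested and 1 passed, beside 6.45% called lower over all tested miRNAs. The other, miR-467f, had 77 and 50 normalized counts with EE and 86 and 97 with E2 (limma adjusted p 0.178). In RefSeq miR-467f lies on chromosome 11, apart from Sfmbt2. miR-2141, for which no role is given here, had 156 and 137 normalized counts with EE, against 243 and 223 with E2 (log2 difference -0.67 ± 0.16, SE, limma adjusted p 0.0218). Its placebo values of 171 and 111 overlapped EE.

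**Figure D3:**
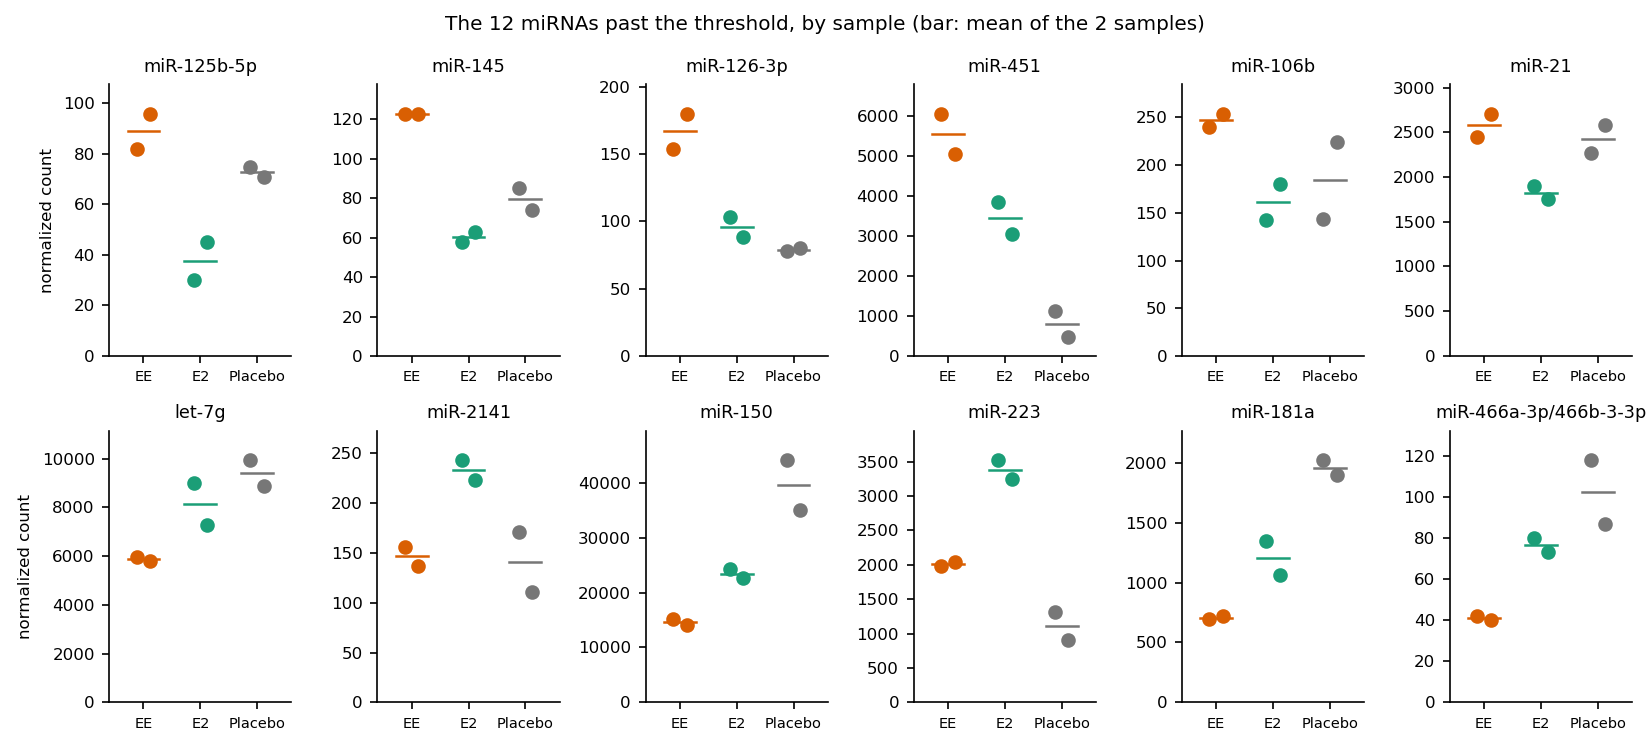
Normalized counts (vertical axes, from 0) of the 12 miRNAs past the threshold in each EE, E2 and placebo sample, with a bar at the mean of each group. EE and E2 samples do not overlap in any panel, and the placebo mean lies between them in 4 of the 12 (miR-145, miR-125b-5p, miR-106b and miR-21).

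Set against the placebo means, the 12 miRNAs fell into several orders. The placebo mean was highest and EE lowest for 4 of the 6 lower miRNAs, namely miR-150, miR-181a, let-7g and the miR-466a-3p probe. For the other 2, miR-223 and miR-2141, placebo was lowest and E2 highest. Of the 6 higher miRNAs, placebo was lowest and EE highest for miR-451 and miR-126-3p, and lay between E2 and EE for the other 4. These orders are descriptions of group means, and the placebo samples were not tested against either estrogen here.

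Several miRNAs had no overlap between EE and E2 and an unadjusted p under 0.05 but did not pass the adjustment. On the higher side, beside miR-486, miR-144 and miR-30a, these were miR-103 at 199 and 213 with EE against 137 and 161 with E2, miR-484 at 77 and 84 with EE against 47 and 60 with E2, and miR-93 at 223 and 191 with EE against 148 and 154 with E2, with limma adjusted p-values from 0.108 to 0.112. On the lower side, beside miR-342-3p and miR-467f, miR-1224 averaged 118 with EE and 156 with E2, and miR-30c was at 846 and 754 with EE, against 1123 and 965 with E2. Their adjusted p-values in limma were 0.152 and 0.178.

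For most of the panel the intervals were narrow enough to bound a difference, but only on the deposited scaling. The median log2 difference of all tested miRNAs was 0.03 there, against -0.49 when scaled by ligation controls and 0.34 by housekeeping mRNAs. The median of the miR-15/16 group, which includes miR-16, was -0.52 with ligation controls and 0.32 with housekeeping mRNAs. Of the 81 miRNAs that did not pass, 76 had a 95% interval (not adjusted for the number of miRNAs) inside a 2-fold change in either direction. The tightest was miR-16, which is found in nearly all cells and abundant in red cells, at 10210 and 9416 normalized counts with EE and 9859 and 10194 with E2. Its log2 difference was -0.03, with an interval of -0.23 to 0.17. miR-25, miR-29a, miR-1944 and miR-146a followed, with intervals that reached no further than 0.35 from 0. The NF-kB-induced miR-146a, for example, was at 2658 and 2990 with EE and 3184 and 2605 with E2.

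Widest were the intervals of miR-155 and miR-376a. miR-376a, from the imprinted Dlk1-Dio3 region and the only one of 61 listed probes of that region that reached the floor, was at 159 and 82 normalized counts with EE and 35 and 230 with E2. Such gaps between samples of 1 group leave no reading of either miRNA. miR-10a, from the HoxB cluster, was next among the E2 samples, at 119 and 204, against 121 and 108 with EE.

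The order of the brightest probes was much the same under both estrogens. miR-150, miR-16, let-7g and miR-1944 were the 4 brightest in both, in the same order. miR-451 ranked 5 with EE and 8 with E2, and miR-223 ranked 17 with EE and 10 with E2. In shares of all mouse miRNA counts, miR-451 averaged 4.94% with EE and 2.75% with E2, and miR-150 averaged 13.1% with EE and 18.7% with E2. Probes differ in how well they capture their miRNA, so a rank is one of signal and not of molecules.

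The let-7 family and miR-98 carry one seed and differ in the bases after it, as do pairs within the miR-30 family and miR-93 beside miR-106b. The members shown had the highest and lowest log2 differences of the let-7 and miR-30 seeds, with miR-98 and miR-93 as the next named members of their seeds.
let-7e: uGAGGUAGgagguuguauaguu
let-7g: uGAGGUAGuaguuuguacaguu
miR-98: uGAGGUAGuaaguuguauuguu
miR-30a: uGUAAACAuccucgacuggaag
miR-30c: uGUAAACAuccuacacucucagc
miR-93: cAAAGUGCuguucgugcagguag
miR-106b: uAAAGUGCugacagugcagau

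Of the 93 tested miRNAs, 69 had a RefSeq entry used here, with 47 distinct seeds, and 8 seeds were held by more than 1 probe. In 6 of these 8 groups, log2 differences of the deposited values lay on both sides of 0. Among the 9 let-7 and miR-98 probes, 1 passed (let-7g, lower), beside 6.45% called lower over all tested miRNAs. Of the 9 values, 6 were below 0 and 3 above. Their median of -0.15 turned to 0.16 when samples were scaled by housekeeping mRNAs. let-7e, from a cluster with miR-99b and miR-125a, was at 167 and 181 normalized counts with EE, against 127 and 144 with E2, a log2 difference of 0.36. miR-98 was at 108 and 113 with EE, against 147 and 134 with E2, a log2 difference of -0.34. Neither passed (limma adjusted p 0.211 and 0.246), and the difference between them was not tested.

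The only members of shared seeds past the threshold were let-7g and miR-106b, each of a different seed, so calls could not be compared within a seed. In the miR-30 family, miR-30a had 0.42 and miR-30c -0.38, and none of its 5 tested members passed. For the seed of miR-106b and miR-93, 1 of 4 probes passed, beside 6.45% called higher over all tested miRNAs. The values ran from -0.22 for the probe shared by miR-20a and miR-20b to 0.62 for miR-106b. The miR-29 group (3 probes, none past), the miR-15/16 group (4, none past) and the group of miR-148 and its relatives (3, none past) had values within -0.16 and 0.28. Pairs with a single sign were miR-19a and miR-19b, at 0.22 and 0.26, and miR-26a and miR-26b, at -0.05 and -0.21. Signs so near 0 turn with the scaling: miR-19b was at -0.26 with ligation controls, and miR-26a and miR-26b at 0.26 and 0.10 with housekeeping mRNAs.

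**Figure D4:**
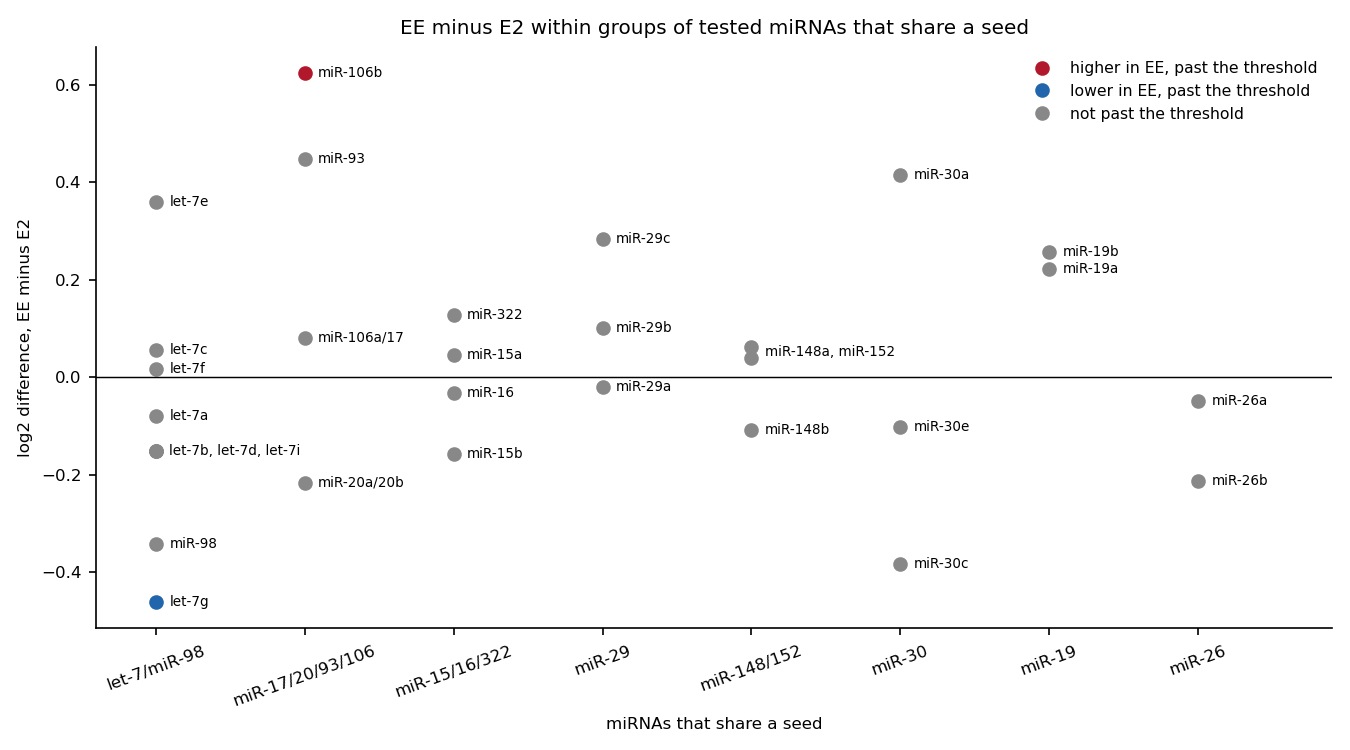
Log2 difference (EE minus E2, vertical axis) of the 30 tested miRNAs with a RefSeq entry used here that share a seed with another such miRNA. They form 8 groups along the horizontal axis, and tested probes without such an entry, such as miR-30b and miR-30d, are not shown. let-7g is past the threshold below 0 and miR-106b above it, and 6 of the 8 groups have members on both sides of 0 in the deposited values.

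Position in the genome gave a mixed picture. Tested miRNAs formed 17 clusters with members within 10 kb on a strand, and 8 of these held log2 differences of both signs in the deposited values. These counts are not independent, since miRNAs with several loci, such as miR-19b and the miR-20a+miR-20b probe, stand in more than 1 cluster. The pair of miR-144 and miR-451 had like values. In the Mcm7 cluster, miR-106b (0.62) and miR-93 (0.45) stood above miR-25 (0.01), at 2803 and 2566 normalized counts with EE and 2687 and 2629 with E2. These 3 miRNAs are cut from one host transcript within 455 bases. Whether miR-106b differed from miR-25 was not tested.

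Control probes also differed between the groups, which bears on how the deposited values were scaled. Ligation controls, synthetic RNAs that enter with the tagging reaction, had geometric means of 2403 and 3208 with EE, against 1840 and 2027 with E2. Housekeeping mRNAs had 1333 and 1045 with EE, against 1401 and 1529 with E2. Both sets lay without overlap, in opposite directions, while the summed positive controls, at 28470 and 28106 with EE and 26888 and 29996 with E2, overlapped. The negative controls averaged 25.2 and 23.8 with EE and 18.5 and 20.5 with E2. The part of these shifts in the results was tested only through the scalings that follow.

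Scaling by ligation controls moved the median log2 difference of all tested miRNAs to -0.49 and gave 0 higher and 12 lower calls. Scaling by housekeeping mRNAs moved it to 0.34 and gave 5 higher and 0 lower calls. Such scalings move all miRNAs of a sample alike, so the gaps between miRNAs are kept by construction. Of the 12 calls, 6 were among the 12 with ligation controls and 4 among the 5 with housekeeping mRNAs. miR-21, the least of the higher ones, was at -0.02 with ligation controls and 0.81 with housekeeping mRNAs, and let-7g, the least of the lower ones, at -0.98 and -0.15. With ligation controls the sign of miR-21 thus changed, but to a difference near 0 (limma adjusted p 0.938). The other 11 kept their sign there. Quantile normalization, which gives the top rank one value in every sample, removed the difference of miR-150 by construction and gave 3 higher and 1 lower calls, the last being miR-15b (-0.12), which is not among the 12. Scaling by the median tested miRNA gave 2 higher and 4 lower. Whether a miRNA differed in amount per spleen cell cannot be read from these values.

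**Figure D5:**
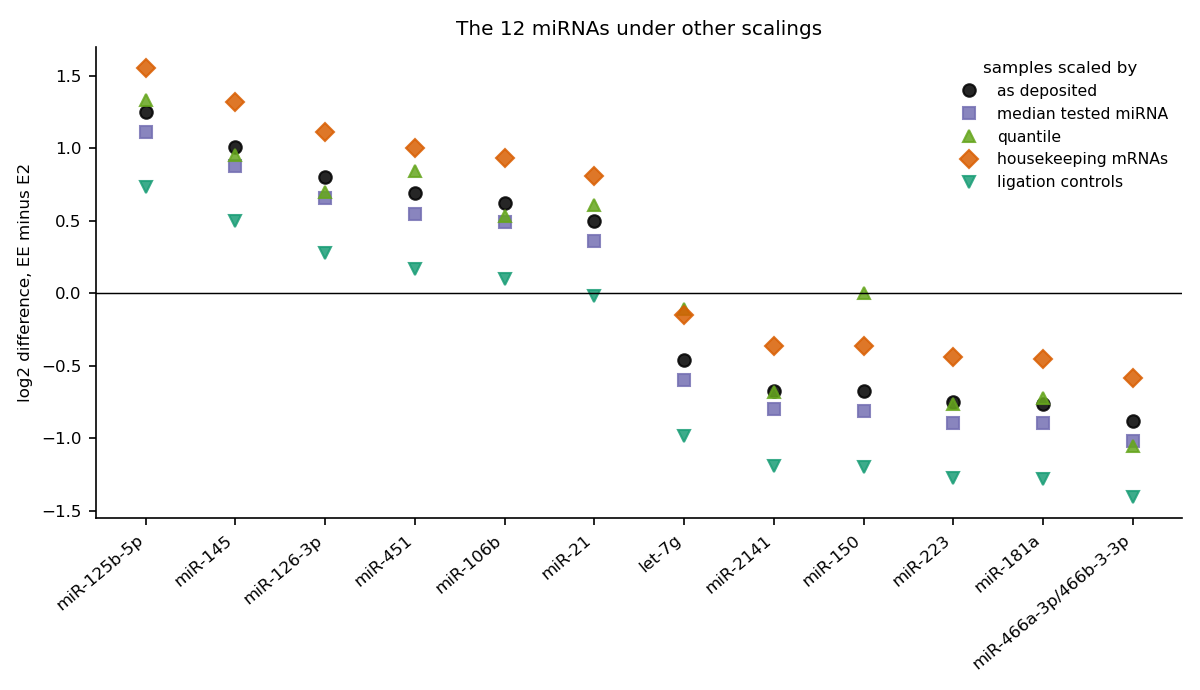
Log2 difference (EE minus E2, vertical axis) of the 12 miRNAs past the threshold, with samples as deposited and scaled in 4 other ways. The whole set shifts up with housekeeping mRNAs and down with ligation controls, with the gaps between miRNAs kept by construction in all but quantile normalization.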

How the data were processed

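Total RNA was purified with a miRNeasy kit including a DNase step and sent to NanoString for the version 1.5 mouse nCounter assay, per the labels and design text. Values were deposited as whole-number scores that behave as rescaled, rounded counts: the geometric mean of the 100 highest miRNAs ranged from 288 to 298 across the 6 samples while the summed positive controls ranged from 22961 to 29996. The authors' normalization is not stated in those sources, raw depth is unknown, and no interval for counting error was computed. Such scaling fixes the mean of abundant miRNAs, so differences are relative to the panel.

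The test was limma 3.58.1 in R 4.3.3 (lmFit and trended eBayes) on log2(value + 1) over 2 EE and 2 E2 samples, two-sided, Benjamini-Hochberg adjusted over 93 miRNAs. It had 9.96 total degrees of freedom, of which 7.96 were prior. Fold changes are on that scale and understate changes of low probes. An exact permutation test of 2 against 2 cannot go under 0.333, so none was run. The fit was tested on simulated data with planted changes of at least 2-fold and no shift of a whole sample. That test covers neither smaller differences nor the choice of scaling.

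Named were the miRNAs past the threshold, each direction filled to at most 10 by unadjusted p without overlap, all tested cell type markers, up to 4 per other list, the brightest, those with the widest gaps within a group, the tightest intervals, and the 3 nearest probes on each side of the floor. Members and lists were chosen with earlier results of these data known. The 18 alternatives changed the samples, scaling, background, pseudocount, filter or variance model.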

Additional observations from a re-analysis of the deposited data

Results flagged for a closer look

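For 2 of the 93 tested miRNAs (2.15%), both EE samples lay on one side of both placebo samples and both E2 samples on the other. They were miR-145, with a log2 difference of EE minus E2 of 1.01 (95% interval 0.61 to 1.41, limma adjusted p 0.00647), and miR-125b-5p, with 1.25 (0.70 to 1.80, adjusted p 0.0116). The difference between the estrogens was tested, while the opposite moves from placebo were not. So few of 93 can arise from a random order of 6 samples. For miR-125b-5p, both E2 values (30 and 45) also fell short of the floor. Groups of 2 allow no test for an outlying sample.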

How the results depend on the processing

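Beside 12 calls (6 higher, 6 lower), there were 7 with all 6 samples in the fit (3 higher), 6 after scaling by the median tested miRNA (2 higher), 4 after quantile normalization (3 higher, 1 lower), 5 with housekeeping mRNAs (0 lower), 12 with ligation controls (0 higher, 12 lower) and 0 of 566 without a filter, where limma gave 41 at an unadjusted p under 0.05. Of the 12, these counts held 7, 6, 3, 4, 6 and 0; the 6 added with ligation controls were miR-10a, miR-1224, miR-30c, miR-340-5p, miR-342-3p and miR-467f. Left-out samples gave 0 to 11 calls, 0 to 7 higher and 0 to 4 lower; a lone sample was then assumed to vary like the other group. Counts stayed within 1.5 times in the remaining 8 settings that kept all 4 samples. miR-150, miR-223 and miR-145 passed in 13 alternatives each and miR-106b in 5, and the sign of the 12 held except for miR-21 with ligation controls (-0.02) and miR-150 after quantile normalization (-0.00, no difference). miR-155, at -0.36 with all samples, reversed to 1.11 without EE replicate 1 and was -1.82 without EE replicate 2. The share of miR-150 with negative controls subtracted was 14.1% in EE and 19.9% in E2, and 12.7% to 13.5% in EE and 18.7% to 18.8% in E2 with a sample left out. The causes were not tested. No paired analysis was possible because the labels give the groups no shared replicate numbers. Quantile added miR-15b, and housekeeping mRNAs miR-484. Signal near the floor limits miR-125b-5p and the miR-466a-3p probe.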

Other observations

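Just above the detection floor stood the miR-466a-3p+miR-466b-3-3p probe, miR-652 and miR-125a-3p. miR-652, a miRNA of monocytes, was at 61 and 56 normalized counts with EE and 46 and 66 with E2. miR-125a-3p was at 60 and 52 with EE and 50 and 51 with E2. Just below it stood miR-1839-5p, miR-301a and miR-125a-5p, which were not tested. miR-125a-5p, of the same family as miR-125b-5p, was at 68 and 50 normalized counts with EE, against 39 and 41 with E2, and at 66 and 63 in placebo samples. Its samples do not overlap between the estrogens, as for 117 of the 473 untested probes, with EE above in 73 and below in 44. miR-1839-5p was at 47 and 43 with EE, against 59 and 58 with E2.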
